A study of Mus musculus with 16 samples.

Results

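The comparison described here asks whether a liver tumor differed from its own control liver by the same amount in 2 tumor genotypes. For each antibody it is the difference between Ctnnb1-mutated tumors and their control livers minus the difference between Ha-ras-mutated tumors and theirs, called the interaction. Any difference shared by tumor and control liver of one treatment arm cancels in it. All 16 samples of the series enter, and all 158 antibodies are tested, with 46 pairs of a phosphorylation-site antibody and the antibody to the total protein. Phenobarbital (PB), a barbiturate, was given to the mice of 7 Ctnnb1-mutated tumors and their 3 control livers. The mice of 3 Ha-ras-mutated tumors and of the other 3 control livers received none, and their labels name water as the agent. All were male mice of the C3H/HeJ strain, and by the series' design text all tumor and control mice had one injection of the liver carcinogen diethylnitrosamine. That text gives a dose of 10 or 90 µg per g, injected when the mice were 2 or 6 weeks old, then 2 weeks without treatment and 28 to 36 weeks on a diet with 0.05% PB or without it. The sample labels instead give 27 weeks of treatment, or 28 days of PB in drinking water, and they assign no dose or age at injection to a sample. Each genotype came from a single arm, so a tumor genotype and a tumor's response to PB cannot be told apart, also in the interaction. Whether the samples of a group are separate animals is not in the labels, and the p-values below therefore reflect only how far these samples vary, part of which may be technical.

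Beta-catenin, encoded by Ctnnb1, carries the Wnt signal into the nucleus, and in normal liver it keeps hepatocytes around the central vein making glutamine synthetase and several cytochrome P450 enzymes. Ha-ras is a membrane GTPase that, once activated, switches on a kinase cascade in which MEK activates ERK, and ERK phosphorylates the RSK kinases and many nuclear proteins. PB acts through a nuclear receptor that induces drug-metabolising enzymes, above all those of the CYP2B and CYP2C families, in hepatocytes.

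The samples were measured on a reverse-phase protein array, which reads each antibody as fluorescence on spots of tissue lysate. Signals are given as multiples of the median antibody of the same sample, so they can be compared between samples for one antibody but not between antibodies. An antibody is called dim in a sample where its intensity was under 2 times its blank, a spot treated with secondary antibody only. The median antibody intensity ranged from 0.466 to 0.791 over the samples, against median blanks of 0.0811 to 0.138, and 98 antibodies were dim in none of the samples. HNF4A, a transcription factor that defines hepatocytes, was above this limit in every sample. The panel held 4 of 8 hepatocyte markers and none of the markers of bile duct, stellate, endothelial or immune cells, so the share of other cells was not measured, and fewer cells of a type cannot be told apart from less protein per cell.

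The tumor effect differed between the genotypes for 4 antibodies to the ERK pathway, 2 to STAT3, 1 to PDK1 and 1 to a P450 enzyme. Of 158 antibodies 8 passed the test (5.06%, limma with Benjamini-Hochberg adjusted p under 0.05). One was higher (0.633%) and 7 were lower (4.43%) in the sense of the interaction, and 28 antibodies (17.7%) had an unadjusted p under 0.05. With samples scaled by quantiles the split was 4 higher and 7 lower, with scaling to the Alexa647 reference rows 1 higher and 2 lower, and with the authors' deposited log2 values 0 higher and 3 lower. Among the 7 lower antibodies 6 were directed at phosphorylation sites. The interaction is built from a Ctnnb1 effect and a Ha-ras effect, each a tumor minus its control liver. All 8 antibodies passed the test of the Ha-ras effect, in which 22 of 158 (13.9%) were called, and 0 of the 8 passed the test of the Ctnnb1 effect, in which limma called 0 antibodies and 25 (15.8%) had an unadjusted p under 0.05. Over all antibodies the median interaction was -0.16 on the log2 scale, with 117 estimates below 0 and 41 above, and the medians quoted for protein groups are to be read against it.

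**Figure D1:**
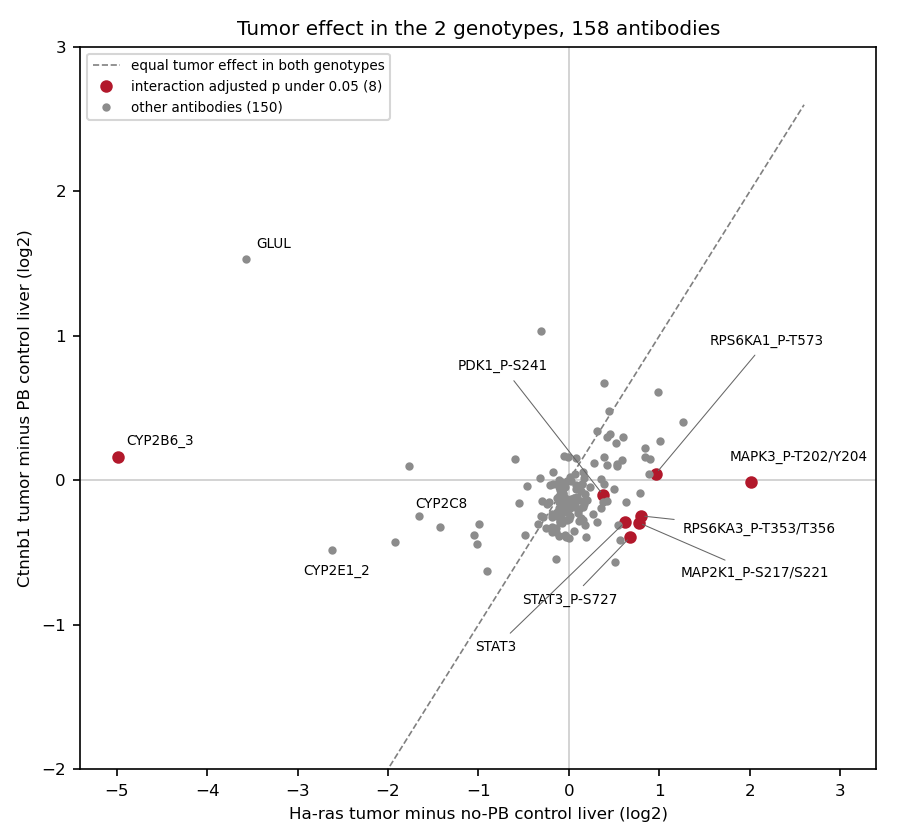
Tumor effect of each of the 158 antibodies, with Ctnnb1 tumor minus PB control liver on the vertical axis and Ha-ras tumor minus no-PB control liver on the horizontal axis, both in log2 units. The dashed line marks equal effects, and the 8 antibodies with an adjusted p under 0.05 for the interaction (red) lie off it, 7 to the right and CYP2B6_3 far to the left.

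Phosphorylated ERK showed the lowest interaction on the panel. The antibody MAPK3_P-T202/Y204 reads the activation-loop sites of ERK1, whose phosphorylation switches the kinase on. Its signal was 1.96, 2.52 and 3.03 in Ctnnb1 tumors (lowest, median and highest of 7), against 2.62, 2.34 and 2.66 in PB control livers. In Ha-ras tumors it was 13.0, 17.7 and 7.22, against 3.10, 2.76 and 2.97 in no-PB control livers. The 3 Ha-ras tumors stood above every other sample, and the Ctnnb1 tumors spanned the range of their control livers. The Ctnnb1 effect was -0.01 ± 0.20 (SE) and the Ha-ras effect 2.01 ± 0.24 on the log2 scale. Their difference, the interaction, was -2.02 ± 0.31 (limma adjusted p = 0.00179), a 4.06-fold gap between the tumor effects.

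The other ERK pathway antibodies that passed the test were the kinase above ERK and those below it. MAP2K1_P-S217/S221 reads the activation-loop sites of MEK1, the kinase that phosphorylates ERK. Its signal was 0.421, 0.483 and 0.590 in Ctnnb1 tumors (lowest, median and highest of 7), against 0.560, 0.634 and 0.592 in PB control livers. It was 0.941, 1.26 and 0.713 in Ha-ras tumors, against 0.498, 0.640 and 0.533 in no-PB control livers. Every Ha-ras tumor lay above all control livers, while 6 of the 7 Ctnnb1 tumors lay below all PB control livers. The interaction was -1.06 ± 0.23 (limma adjusted p = 0.0105), with a Ctnnb1 effect of -0.29 ± 0.15 that did not pass the test and a Ha-ras effect of 0.77 ± 0.17 that did.

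RPS6KA1_P-T573 reads a site on the ribosomal S6 kinase RSK1 that ERK phosphorylates. Its signal was 2.18, 2.42 and 3.19 in Ctnnb1 tumors (lowest, median and highest of 7), against 2.46, 2.39 and 2.32 in PB control livers. Ha-ras tumors had 4.90, 5.46 and 5.44, against 2.85, 2.40 and 2.89 in no-PB control livers. The Ha-ras tumors were again above all other samples, and the ranges of the other 3 groups overlapped. The interaction was -0.92 ± 0.17 (limma adjusted p = 0.00694), from a Ctnnb1 effect of 0.04 ± 0.11 and a Ha-ras effect of 0.96 ± 0.13.

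The related kinase RSK2 gave a like picture with the antibody RPS6KA3_P-T353/T356. Ctnnb1 tumors had a signal of 0.373, 0.428 and 0.535 (lowest, median and highest of 7), against 0.547, 0.565 and 0.450 in PB control livers. Ha-ras tumors had 0.922, 0.733 and 1.11, against 0.559, 0.469 and 0.547 in no-PB control livers. Only the Ha-ras tumors stood apart from the rest of the samples. The interaction was -1.04 ± 0.22 (limma adjusted p = 0.0105), with a Ctnnb1 effect of -0.25 ± 0.14 and a Ha-ras effect of 0.80 ± 0.17. This call and that of RPS6KA1_P-T573 were lost when samples were scaled to the Alexa647 rows, where both had an adjusted p of 0.113 and interactions of -1.01 and -0.88.

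**Figure D2:**
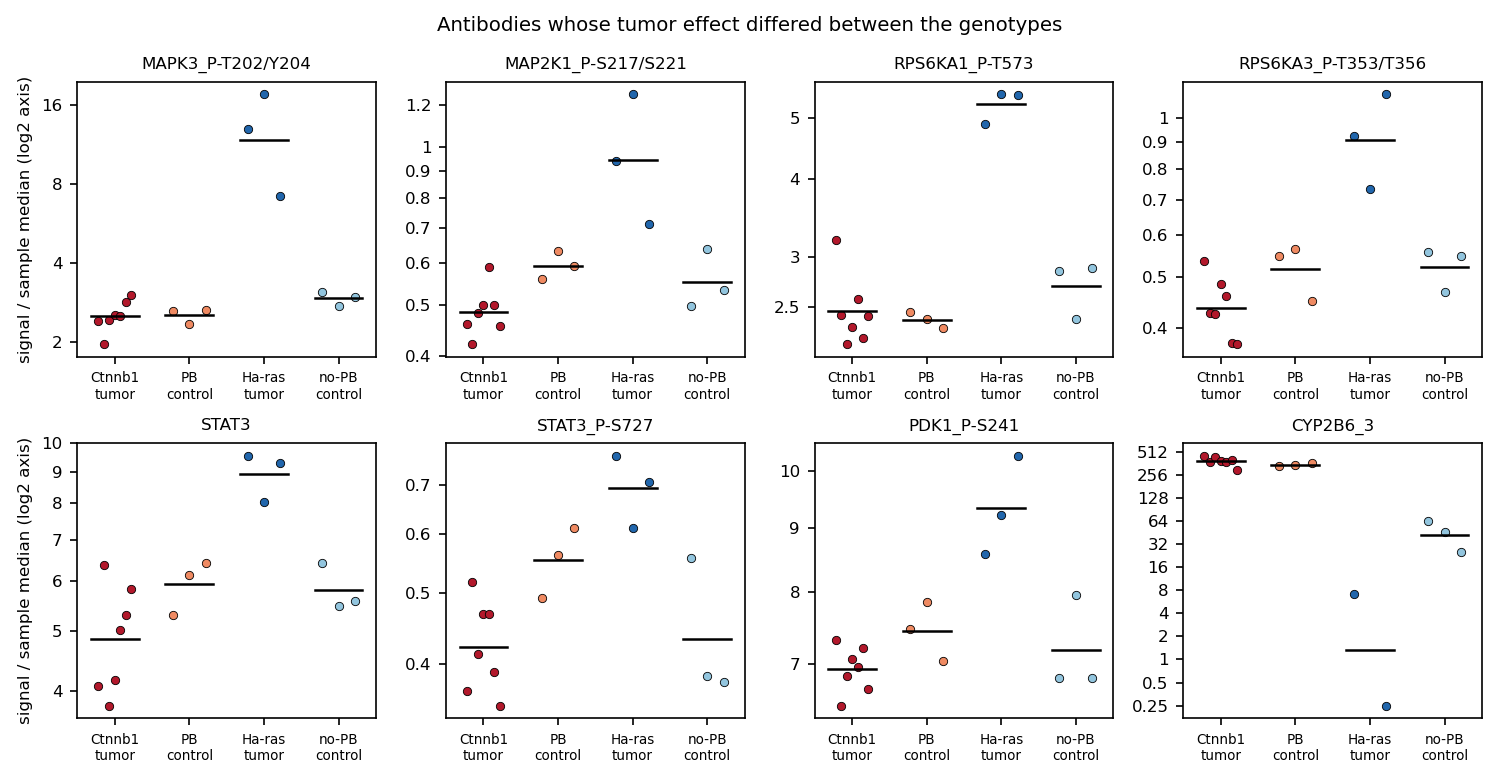
Signal of the 8 antibodies that passed the interaction test, as multiples of the sample's median antibody on a log2 axis, one point per sample and a bar at the mean of log2 values. Ha-ras tumors lie above their control livers in 7 panels and below them for CYP2B6_3, where Ha-ras tumor 3 had no positive intensity and is not drawn.

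HRAS and the total proteins of ERK1 and MEK1 were not called. HRAS itself was at 0.859, 0.969 and 1.11 in Ctnnb1 tumors (lowest, median and highest of 7), against 1.08, 1.17 and 1.19 in PB control livers. It was at 1.14, 1.16 and 0.935 in Ha-ras tumors, against 1.15, 1.14 and 1.32 in no-PB control livers. Its interaction was -0.08, with a 95% interval of -0.44 to 0.27. The interactions of total ERK1 (MAPK3) and MEK1 (MAP2K1) were -0.27 and 0.03, with adjusted p-values of 0.615 and 0.978 in the limma fit. BRAF_P-S445 was at -0.58 (adjusted p = 0.276) and was dim in all 16 samples. Of the 10 antibodies to Ras, MEK and ERK proteins 2 were called lower and 0 higher, with a median interaction of -0.29. Among 11 antibodies to ERK outputs 2 were called lower and 0 higher, with a median of -0.33. Of these estimates 10 were below 0 and 1 was above, at 0.69. The uncalled outputs included DUSP4, a phosphatase of MAP kinases, at -0.50 (adjusted p = 0.143) and a second site of RSK1, RPS6KA1_P-S380, at -0.86 (adjusted p = 0.146). DUSP4 was dim in every control liver and in some tumors of both genotypes, and its blank had an interaction of -0.52 ± 0.33. The RPS6KA1_P-S380 difference passed in 3 of 32 alternatives, at -1.16 without Ha-ras tumor 3 (adjusted p = 0.0207), -2.06 in the authors' deposited log2 values (adjusted p = 0.00405) and -1.11 with a weight per sample (adjusted p = 0.0176), and was as near to 0 as -0.57 in another.

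Phosphorylation of ERK1 relative to total ERK1 also passed the test. Of 46 phospho-to-total pairs 2 passed the test (4.35%), 1 in each direction (2.17% each), and 7 (15.2%) had an unadjusted p under 0.05. The ratio of MAPK3_P-T202/Y204 to MAPK3 was 0.559, 0.635 and 0.741 in Ctnnb1 tumors (lowest, median and highest of 7), against 0.711, 0.633 and 1.06 in PB control livers. It was 3.08, 3.75 and 1.82 in Ha-ras tumors, against 1.005, 0.975 and 0.976 in no-PB control livers. No other sample reached the lowest Ha-ras tumor. The interaction of the ratio was -1.75 ± 0.31 (limma adjusted p = 0.00169), from a Ctnnb1 effect of -0.27 ± 0.20 and a Ha-ras effect of 1.49 ± 0.23.

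The ratios of RPS6KA1_P-T573 to RPS6KA1 and of MAP2K1_P-S217/S221 to MAP2K1 had interactions of -0.89 ± 0.29 and -1.10 ± 0.40 that did not pass the test (limma adjusted p = 0.109 and 0.151). The first passed without PB control liver 6, at -1.10 (adjusted p = 0.0311), and the second without Ha-ras tumor 3, at -1.46 (adjusted p = 0.0209). With quantile normalization they were -0.49 and -0.34 (adjusted p = 0.648 for both), and each passed in 2 of 32 alternatives. Over all 46 pairs the median interaction was -0.12, with 28 estimates below 0 and 18 above.

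STAT3 was the only protein with 2 called antibodies. STAT3 is a transcription factor that cytokine receptors activate through tyrosine phosphorylation, and the serine read by STAT3_P-S727 is a further site that MAP kinases among others phosphorylate. Total STAT3 was at 3.79, 5.00 and 6.36 in Ctnnb1 tumors (lowest, median and highest of 7), against 5.29, 6.13 and 6.42 in PB control livers. It was at 9.55, 8.05 and 9.28 in Ha-ras tumors, against 6.42, 5.48 and 5.57 in no-PB control livers. The Ha-ras tumors were above all other samples. The interaction was -0.91 ± 0.23 (limma adjusted p = 0.0331), from a Ctnnb1 effect of -0.29 ± 0.15 and a Ha-ras effect of 0.62 ± 0.18. This call did not hold without any one of Ctnnb1 tumor 4, PB control livers 5 and 6, no-PB control livers 2 and 3, and Ha-ras tumors 1 and 3, where the interaction was between -0.89 and -0.85 with adjusted p-values of 0.0532 to 0.0968.

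STAT3_P-S727 had a signal of 0.351, 0.413 and 0.517 in Ctnnb1 tumors (lowest, median and highest of 7), against 0.492, 0.562 and 0.613 in PB control livers. It had 0.768, 0.613 and 0.708 in Ha-ras tumors, against 0.557, 0.385 and 0.378 in no-PB control livers. The Ha-ras tumors lay above their own control livers but met the highest PB control liver. The interaction was -1.07 ± 0.23 (limma adjusted p = 0.0105), from a Ctnnb1 effect of -0.39 ± 0.15 and a Ha-ras effect of 0.68 ± 0.17. The antibody was dim in 3 of 7 Ctnnb1 tumors, 3 of 3 PB control livers, 1 of 3 Ha-ras tumors and 2 of 3 no-PB control livers. Its blank had an interaction of -0.66 ± 0.37, and with the blank subtracted the antibody gave -1.53 with an adjusted p of 0.105. The ratio of STAT3_P-S727 to total STAT3 was not called. Tumor-minus-control values of this ratio were -0.63 to 0.27 in Ctnnb1 tumors and 0.03 to 0.11 in Ha-ras tumors (log2), so they overlapped. A change of the site apart from total STAT3 is therefore not shown.

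The tyrosine site of STAT3 was called only as a ratio to total STAT3. STAT3_P-Y705 reads the residue whose phosphorylation lets STAT3 dimers form, and its interaction was 0.00 ± 0.13 on its own. As a ratio to total STAT3 it was 0.0841, 0.120 and 0.136 in Ctnnb1 tumors (lowest, median and highest of 7), against 0.113, 0.0981 and 0.0930 in PB control livers. The ratio was 0.0633, 0.0664 and 0.0607 in Ha-ras tumors, against 0.0897, 0.119 and 0.109 in no-PB control livers. All 3 Ha-ras tumors had a lower ratio than any other sample. The interaction of the ratio was 0.91 ± 0.24 (limma adjusted p = 0.0379), from a Ctnnb1 effect of 0.18 ± 0.15 and a Ha-ras effect of -0.73 ± 0.18. This is the -0.91 of total STAT3, its denominator, with the sign turned, and no separate change of the site's own signal. The interaction of the ratio held in 5 of the 16 fits that left out one sample. Without any one of Ctnnb1 tumors 1, 3, 4 and 5, PB control livers 5 and 6, no-PB control livers 2 and 3, and Ha-ras tumors 1, 2 and 3 it was 0.82 to 0.94 with adjusted p-values of 0.0539 to 0.1475.

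JAK1, a kinase that phosphorylates STAT3 below cytokine receptors, passed a test in the Ctnnb1 arm as a phospho-to-total ratio. JAK1_P-Y1022/Y1023 over JAK1 was 1.30, 1.43 and 1.77 in Ctnnb1 tumors (lowest, median and highest of 7), against 0.909, 1.03 and 0.998 in PB control livers. It was 1.25, 1.02 and 0.910 in Ha-ras tumors, against 1.02, 0.947 and 1.09 in no-PB control livers. The 7 Ctnnb1 tumors were above all other samples. The Ctnnb1 effect of 0.56 ± 0.13 was the 1 pair called for that contrast (2.17%, limma adjusted p = 0.0256), and the Ha-ras effect was 0.05 ± 0.15. Their difference of 0.51 ± 0.20 did not pass the test (adjusted p = 0.167), so the ratio's tumor effect is not shown to differ between the genotypes. Tumor-minus-control values of total JAK1, the denominator, were -0.60 to -0.20 in the 7 Ctnnb1 tumors (log2), and those of the site alone were -0.19 to 0.35. Neither antibody was called for the Ctnnb1 effect, so a rise of the site apart from lower total JAK1 is not shown. In the group of 13 antibodies to JAK, STAT and NF-kB proteins 2 were called lower and 0 higher, both against STAT3, with a median interaction of -0.19.

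**Figure D3:**
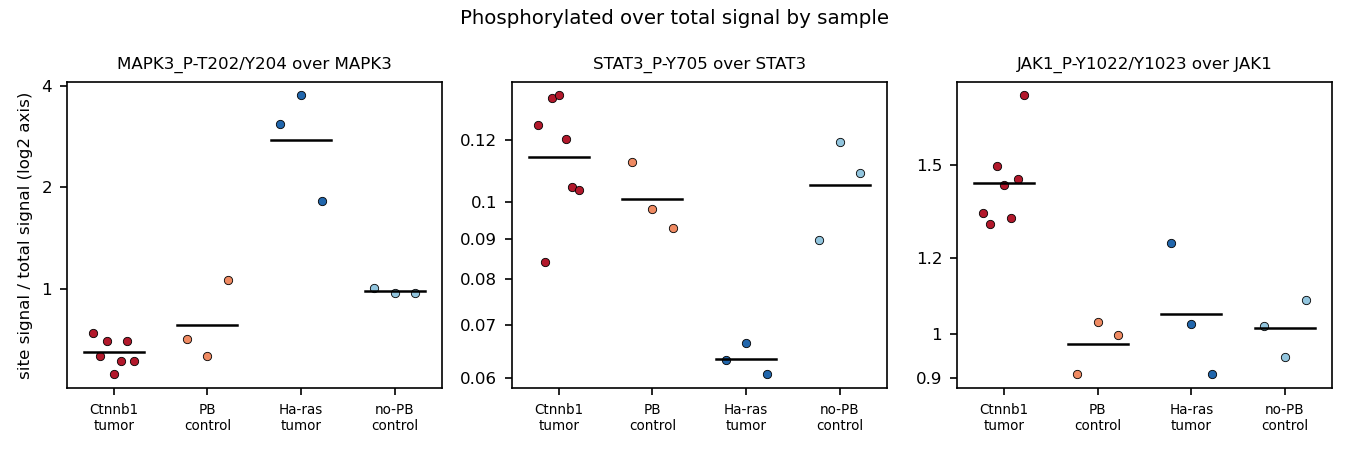
Ratio of the phosphorylation-site signal to the total-protein signal by sample, on a log2 axis, with a bar at the mean of log2 values. Ha-ras tumors are highest for MAPK3 (1.82 to 3.75) and lowest for STAT3_P-Y705 (0.0607 to 0.0664), and Ctnnb1 tumors are highest for JAK1 (1.30 to 1.77).

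In the PI3K, Akt and mTOR group 1 of 17 antibodies was called, PDK1_P-S241, lower. This antibody reads the activation-loop serine of the kinase that activates Akt and the S6 kinases. Its signal was 6.48, 6.96 and 7.32 in Ctnnb1 tumors (lowest, median and highest of 7), against 7.47, 7.85 and 7.03 in PB control livers. It was 8.58, 9.22 and 10.3 in Ha-ras tumors, against 6.82, 7.95 and 6.82 in no-PB control livers. The Ha-ras tumors lay above all other samples by a small margin. The interaction was -0.48 ± 0.13 (limma adjusted p = 0.0385), the smallest of the 8 in size, from a Ctnnb1 effect of -0.10 ± 0.08 and a Ha-ras effect of 0.38 ± 0.10. It did not hold without any one of Ctnnb1 tumors 2, 3, 4 and 7, PB control livers 4, 5 and 6, no-PB control livers 1 and 3, and Ha-ras tumors 2 and 3. In those fits it was -0.52 to -0.41 with adjusted p-values of 0.0518 to 0.123, and it passed in 11 of 32 alternatives in all. The blank of this antibody had an interaction of -0.49 ± 0.36, as large as its own. With the blank subtracted the antibody gave -0.45 (limma adjusted p = 0.275).

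The other members of this group were not called. MTOR_P-S2448, a site on the mTOR kinase, had a Ha-ras effect of 0.84 ± 0.15 that passed the test (limma adjusted p = 0.0024) and a Ctnnb1 effect of 0.22 ± 0.13, and the interaction of -0.62 ± 0.20 did not pass (adjusted p = 0.0895). AKT1 and its site AKT1_P-S473 were at -0.11 and -0.18, with 95% intervals of -0.53 to 0.31 and -0.69 to 0.34. The median interaction of the group was -0.21.

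CYP2B6_3 was the only antibody called higher, and the only enzyme called. It is 1 of 3 panel antibodies named for human CYP2B6, a P450 of the family that PB induces most. The signal was 302, 388 and 460 in Ctnnb1 tumors (lowest, median and highest of 7), against 338, 347 and 362 in PB control livers. It was 7.21 in Ha-ras tumor 1 and 0.248 in Ha-ras tumor 2, with no positive intensity in Ha-ras tumor 3, against 64.7, 46.4 and 25.6 in no-PB control livers. Both measured Ha-ras tumors lay below all no-PB control livers, and the Ctnnb1 tumors spanned the range of theirs. The interaction was 5.15 ± 1.12 (limma adjusted p = 0.0116), from a Ctnnb1 effect of 0.16 ± 0.68 and a Ha-ras effect of -4.99 ± 0.89, with Ha-ras tumor 3 missing from the fit.

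The size of that difference rests on few Ha-ras tumors, since 2 of the 3 were dim. The interaction was 7.58 without Ha-ras tumor 1 and 2.72 without Ha-ras tumor 2. Each of these fits has a single Ha-ras sample, in the first the dim tumor 2 at 1.88 times its blank, and takes its spread from the other groups, so they are given as values with no test. The call was lost in the authors' deposited log2 values, at 4.62 (limma adjusted p = 0.165), and with Ctnnb1 tumors 4 to 6 as the only tumors of that genotype, at 5.15 (adjusted p = 0.0707). With every dim sample raised to its limit, an alternative chosen after the data were seen, it was 5.69. The other 2 antibodies gave other values: CYP2B6_1 had an interaction of -0.11 ± 0.38 and CYP2B6_2 of -0.02 ± 0.20, and neither passed.

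**Figure D4:**
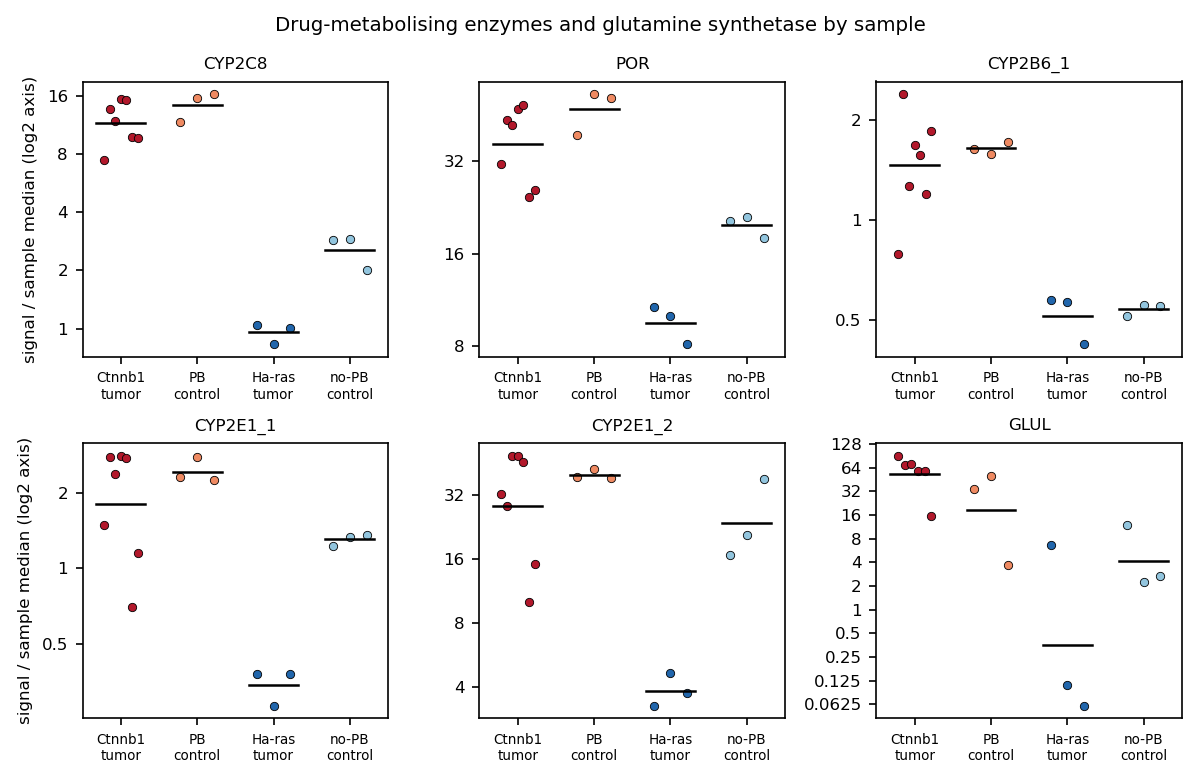
Signal of 4 antibodies to P450 enzymes, of their electron donor POR and of glutamine synthetase (GLUL) by sample, as multiples of the sample's median antibody on a log2 axis, with a bar at the mean of log2 values. For CYP2B6_1 Ha-ras tumors and no-PB control livers lie together, while for CYP2C8 the Ha-ras tumors (0.829 to 1.04) lie below the no-PB control livers (2.01 to 2.91). GLUL in Ctnnb1 tumor 6 had no positive intensity and is not drawn.

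The 3 antibodies called for a difference between the control livers, all higher with PB (1.9% of 158), show what the interaction takes out. CYP2B6_3 was not called there. Its signal was nonetheless 338, 347 and 362 in PB control livers, against 64.7, 46.4 and 25.6 in no-PB control livers. CYP2B6_1 was 1.50 ± 0.24 higher in Ctnnb1 tumors than in Ha-ras tumors on the log2 scale, and 1.61 ± 0.29 higher in PB than in no-PB control livers, so that its interaction was near 0. CYP2C8, named for a human P450 of another PB-responsive family, was at 7.45, 11.9 and 15.4 in Ctnnb1 tumors (lowest, median and highest of 7), against 11.7, 15.6 and 16.3 in PB control livers. It was at 1.04, 0.829 and 1.01 in Ha-ras tumors, against 2.86, 2.91 and 2.01 in no-PB control livers. The Ha-ras tumors were below every other sample, and Ctnnb1 tumors overlapped their control livers. The direct tumor difference was 3.59 ± 0.21 and the control liver difference 2.49 ± 0.25. What was left, 1.10 ± 0.33, did not pass the test (limma adjusted p = 0.0742), and without Ctnnb1 tumor 1 it was 1.21 and did (adjusted p = 0.0187). POR, the reductase that feeds electrons to P450 enzymes, had a direct difference of 1.93 ± 0.21, a control liver difference of 1.25 ± 0.25 and an interaction of 0.67 ± 0.33 (adjusted p = 0.285).

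Of the 30 antibodies that differed directly between Ctnnb1 and Ha-ras tumors (19% of 158), 22 were not called in the interaction and 8 were. The interaction was less than 50% of the direct difference for 6 of the 30. Among them CYP3A4_2, a further drug-metabolising P450, had a direct difference of 2.23 ± 0.56 and a control liver difference of 1.96 ± 0.66. It was dim in Ha-ras tumors 1 and 2 and in no-PB control liver 1, at 1.45, 1.82 and 1.996 times its blank. Its signal in PB control livers ran from 2.08 to 9.65. For the ERK pathway antibodies the control livers differed little. MAPK3_P-T202/Y204 differed by -2.24 ± 0.20 between the tumors and by -0.21 ± 0.24 between the control livers.

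**Figure D5:**
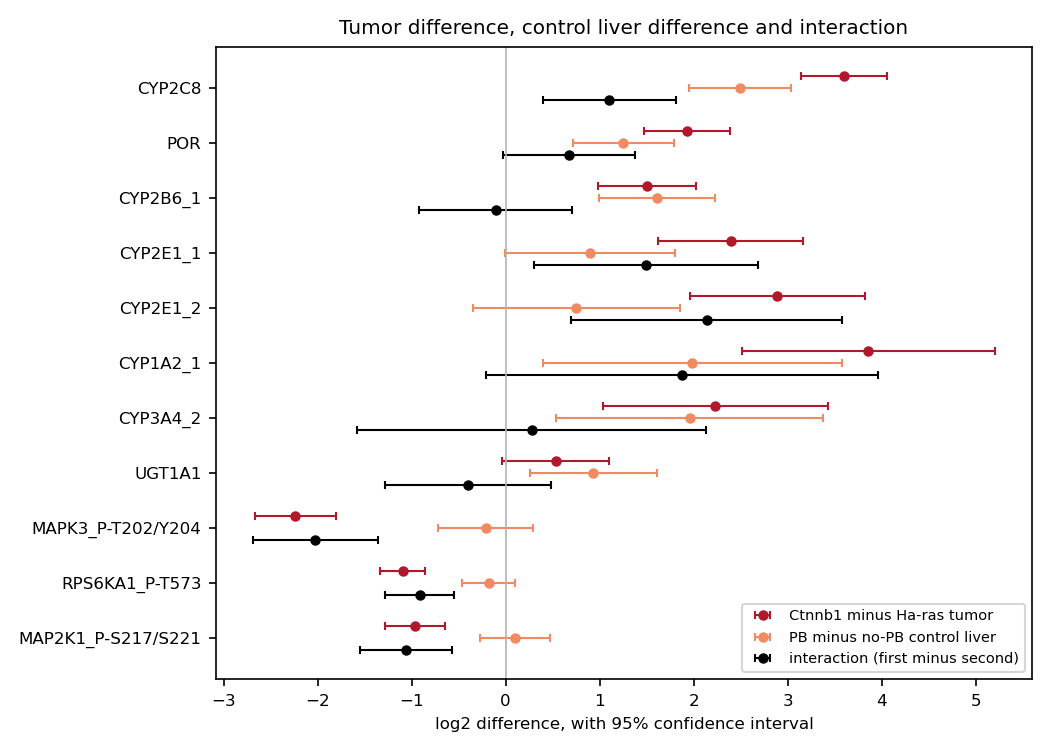
Log2 differences with 95% confidence intervals for 11 antibodies, showing Ctnnb1 minus Ha-ras tumor (red), PB minus no-PB control liver (orange) and the interaction (black), which is the first minus the second. CYP2B6_1 has tumor and control differences of 1.50 and 1.61 and an interaction near 0, while MAPK3_P-T202/Y204 has a control difference of -0.21 and an interaction of -2.02.

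Targets of beta-catenin around the central vein had high interaction estimates with wide errors. GLUL, which makes glutamine from ammonia, had a signal of 15.3, 63.7 and 91.6 in 6 Ctnnb1 tumors (lowest, median and highest), against 34.5, 49.7 and 3.69 in PB control livers. It had 6.55, 0.111 and 0.0595 in Ha-ras tumors, against 12.1, 2.23 and 2.69 in no-PB control livers. Tumor and control ranges overlapped in both arms, and 2 of the 3 Ha-ras tumors were dim. The interaction of 5.10 ± 1.92 did not pass the test (limma adjusted p = 0.152, with Ctnnb1 tumor 6 missing). Over 31 alternatives it ranged from 2.72 to 7.22, with adjusted p-values up to 0.674. The one past the threshold, 7.22 without Ha-ras tumor 1, has only the 2 dim tumors in the Ha-ras arm, at 1.10 and 0.339 times their blank, and is no measured size.

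The antibodies to CYP2E1, a P450 that oxidises ethanol, also had estimates above 0. CYP2E1_2 had a signal of 10.1, 32.5 and 49.3 in Ctnnb1 tumors (lowest, median and highest of 7), against 39.0, 42.6 and 38.5 in PB control livers. It had 3.28, 4.70 and 3.76 in Ha-ras tumors, against 16.8, 20.9 and 38.2 in no-PB control livers. All Ha-ras tumors were below all other samples. The interactions of CYP2E1_2 and CYP2E1_1 were 2.14 ± 0.67 and 1.49 ± 0.56 (limma adjusted p = 0.0895 and 0.146). Ctnnb1 tumors 6 and 7 were the lowest of their group for both. Against PB control livers they were at -1.985 and -1.39 for CYP2E1_2, and at -1.79 and -1.08 for CYP2E1_1 (log2). Without Ctnnb1 tumor 6 the interactions were 2.39 and 1.72 and passed the test (adjusted p = 0.0122 and 0.0123), while without tumor 7 neither passed. Ha-ras tumor 3 was dim for both, at 1.16 and 1.94 times its blank. The group of 5 antibodies to perivenous proteins held these, GLUL and 2 to a further P450, CYP1A2_1 and CYP1A2_2. In it 0 were called in the limma fit, 4 estimates were above 0 and the median was 1.87. The CYP1A2 antibodies differed from each other. Tumor-minus-control values in Ha-ras tumors were -2.08 to -1.54 for CYP1A2_1 and -0.14 to 0.14 for CYP1A2_2 (log2). In Ctnnb1 tumors they were -3.00 to 1.27 and -0.37 to 0.26. Over the 15 antibodies to drug-metabolising enzymes 1 was called higher and 0 lower, with a median of 0.08.

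Beta-catenin and its partners gave no call in the limma fit. CTNNB1 was at 1.65, 3.44 and 7.94 in Ctnnb1 tumors (lowest, median and highest of 7), against 3.78, 3.76 and 5.05 in PB control livers. It was at 7.92, 6.68 and 7.98 in Ha-ras tumors, against 4.17, 4.15 and 4.77 in no-PB control livers. The Ctnnb1 tumors spread on both sides of their control livers, whereas all Ha-ras tumors were above theirs. The interaction was -0.87 ± 0.56 (limma adjusted p = 0.489), and the sites CTNNB1_P-S675 and CTNNB1_P-T41/S45 were at -0.53 and -0.35. With Ctnnb1 tumors 4 to 6 as the only tumors of that genotype, CTNNB1 was at -1.44 and passed (adjusted p = 0.0381). That fit leaves out Ctnnb1 tumors 2, 3 and 7, the highest of the group at 5.555, 6.27 and 7.94, and tumor 1 at 2.75. All 8 estimates of the group were below 0, with a median of -0.44. APC, a scaffold of the complex that degrades beta-catenin, was at -0.97 ± 0.29 (adjusted p = 0.0727) but was dim in all 16 samples. It passed the test in 6 of 29 alternatives, among them those without Ctnnb1 tumor 5, at -1.07, and without Ha-ras tumor 1, at -1.14. In the authors' deposited log2 values the direction turned, to 0.76 (adjusted p = 0.988).

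JNK1, JUN, AMPK and HNF4A were not called in the interaction by limma. MAPK8_P-T183/Y185, the active form of JNK1, had a Ctnnb1 effect of 0.05 ± 0.18 and a Ha-ras effect of 0.89 ± 0.21 that passed the test, and an interaction of -0.85 ± 0.28 (limma adjusted p = 0.0895). JUN, a transcription factor that JNK phosphorylates, was at -0.78 ± 0.25 (adjusted p = 0.0895) and was dim in 10 of 16 samples. The JUN difference passed in 2 of 30 alternatives, one of them without Ha-ras tumor 1, at -0.94 (adjusted p = 0.0367), and adjusted p-values reached 0.899 in others. PRKAA1_P-T172, the activated form of the energy sensor AMPK, had a Ctnnb1 effect of -0.56 ± 0.25 and a Ha-ras effect of 0.51 ± 0.29, neither past the test, and an interaction of -1.07 ± 0.39 (adjusted p = 0.142). HNF4A had a direct difference of -0.49 ± 0.11 between Ctnnb1 and Ha-ras tumors and an interaction of -0.33 ± 0.17 (adjusted p = 0.321).

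No antibody was called in the limma fit among the 7 to stress MAP kinases (median -0.21), the 6 to apoptosis and p53 (median -0.34), the 11 to the cell cycle (median -0.04), the 12 to tyrosine kinases and adapters (median 0.04) or the 10 to chromatin (median -0.20). The proliferation antigen MKI67, named here after its value was seen, was at 0.04 ± 0.69. All 50 phosphorylation-site antibodies together had 6 calls, all lower, and a median of -0.29 with 42 estimates below 0. The other 108 antibodies had 1 call in each direction and a median of -0.12.

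The tumor-minus-control values of the genotypes did not overlap for 25 antibodies (15.8%), 4 with all Ctnnb1 tumors above (2.53%) and 21 with all below (13.3%). The 8 called antibodies were among them, and 17 others were not called. Most blanks lay on the same side of 0 as most antibodies: 17 of 19, and 10 of 11 for rabbit antibodies, had an interaction below 0. The 5 blanks that belong to the 8 called antibodies were between -0.66 and -0.49. No blank passed the limma test, at a lowest adjusted p of 0.497 and with 0 unadjusted p-values under 0.05. With blanks subtracted, 4 of the 8 antibodies were called, MAPK3_P-T202/Y204, MAP2K1_P-S217/S221, RPS6KA1_P-T573 and CYP2B6_3.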

How the data were processed

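Groups and replicate numbers came from the sample titles. Each deposited file holds a fluorescence intensity for 158 antibodies, 19 blanks and 6 Alexa647 rows. Any scaling of the intensity by the authors ahead of deposit is not stated in the labels or headers. The authors' deposited value table holds log2 values, used as an alternative. Of 158 antibodies 146 match the log2 intensity in it, within 0.01 in at least 8 samples, after 1 factor per sample and the median of the arm's control livers, and 145 of these also after 1 blank. An antibody without a matched blank was judged against the sample's median blank.

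Intensities were log2 transformed and centred per sample on the median over the 155 antibodies with positive values throughout. Values at or below 0 were missing, 1 each for GLUL (Ctnnb1 tumor 6), ACTB (PB control liver 6) and CYP2B6_3 (Ha-ras tumor 3). One limma fit (limma 3.58.1, R 4.3.3) of 4 group means, with 12 residual degrees of freedom and 2.65 from the prior, gave every contrast. P-values were adjusted over 158 antibodies or 46 pairs. The fit was tested on simulated data. Alternatives covered scaling, blanks, dim antibodies, weights, moderation, replicate blocks and single samples. There were 31 planned, 16 of which leave out one sample, and 1 added after seeing the data.

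The antibodies named are all calls, the 4 lowest p-values within any list that holds a call, the 10 uncalled antibodies with the smallest p, up to 6 direct tumor differences with an interaction under 0.5 log2, and antibodies to beta-catenin, HRAS, GLUL, ERK, MEK1, AKT1, CYP2C8, CYP2B6, POR, JAK1 and HNF4A. The members, lists and tests were chosen with earlier results of these data known. Ignoring case, 91 of the 101 symbols are mouse gene names in RefSeq (GRCm38.p6). The number of arrays limits the precision, and the array gives no genomic coordinates. Some antibodies are not reported here by name.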

Additional observations from a re-analysis of the deposited data

Results flagged for a closer look

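The difference between the genotypes' tumor effects passed its own limma test for 8 antibodies and 2 ratios. On the log2 scale it was 5.15 for CYP2B6_3, -2.02 for MAPK3_P-T202/Y204, -1.06 for MAP2K1_P-S217/S221, -0.48 for PDK1_P-S241 and -0.92 for RPS6KA1_P-T573. It was -1.04 for RPS6KA3_P-T353/T356, -0.91 for STAT3 and -1.07 for STAT3_P-S727. For the ratios it was -1.75 for MAPK3_P-T202/Y204 over MAPK3 and 0.91 for STAT3_P-Y705 over STAT3. The last value is not separate from that of STAT3, which is its denominator, since STAT3_P-Y705 on its own was not called.

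Single Ctnnb1 tumors stood apart from the other tumors of their group for 3 of 44 antibodies and ratios looked at, by the gap to the nearest tumor as a share of the group's range. Chance gives about 1 in 20. GLUL had a signal of 15.3 in Ctnnb1 tumor 7, the lowest of the 6 with a positive intensity. Ctnnb1 tumor 6 had no positive GLUL intensity and was left out, so tumor 7 was not the only low tumor. JAK1_P-Y1022/Y1023 had 0.777 in Ctnnb1 tumor 2, the lowest of 7, and APC had 0.241 in Ctnnb1 tumor 5, the highest of 7. The cause was not tested.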

How the results depend on the processing

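The ERK1 sites passed the threshold in all 32 alternatives, at -2.41 to -1.73, and so did their ratio to total ERK1, at -2.21 to -1.53. MAP2K1_P-S217/S221 passed in 30 of 32, RPS6KA1_P-T573 and RPS6KA3_P-T353/T356 in 29, STAT3_P-S727 in 24 of 30 and STAT3 in 18 of 32. PDK1_P-S241 passed in 11 of 32 and the ratio of STAT3_P-Y705 to STAT3 in 20 of 32. CYP2B6_3 lost its call in the authors' value table, with either replicate block and with Ctnnb1 tumors 4 to 6 only. Its fits without Ha-ras tumor 1 or 2 hold a single Ha-ras sample and are no test. Its fit without Ha-ras tumor 3 leaves out a value that was already missing. None of these 10 results changed sign. The count of 8 antibodies was 3 with scaling to the Alexa647 rows, 3 in the authors' value table, 5 with blanks subtracted and 17 with a weight estimated per sample. It ranged from 6 to 11 over the 16 fits without one sample, in which the count of 2 pairs ranged from 1 to 2. The fits without Ha-ras tumor 1 or 2 count CYP2B6_3 on a single Ha-ras sample. The median of all antibodies shifted by 0.12 log2 with quantile normalization, the authors' table or subtracted blanks. The cause of these changes was not tested.

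The labels do not say what a replicate number stands for, and for this reason the numbers were not taken as pairs. Same-numbered tumors and control livers had correlated deviations of 0.0951, 0.128 and 0.225 in the PB arm, where other pairs had -0.30 to 0.29, and of 0.611, 0.0928 and 0.00615 in the other arm, where other pairs had -0.50 to 0.38. In each arm 6 samples share a number, and 2 of these in the PB arm and 3 in the other correlated best with their own number. With the replicate number as a block 2 antibodies were called. With arm and number as a replicate block 7 antibodies and 4 pairs were called in the limma fit. CYP2B6_3 (5.52, adjusted p = 0.0646) and PDK1_P-S241 (-0.45, adjusted p = 0.152) were not among them, and CTNNB1 (-1.44, adjusted p = 0.0440) was. Ctnnb1 tumors 1, 2, 3 and 7 share a number with no PB control liver, so with this block they add nothing to the interaction. The CTNNB1 estimate is therefore that of Ctnnb1 tumors 4 to 6 alone, also -1.44, and not a separate result. Dim antibodies limit what can be seen, since 10 of 158 were below 2 times their blank in all samples.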
